A study of Rattus norvegicus with 16 samples.

Results

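The mir-34 and mir-449 hairpins are relatives that produce small RNAs with the same seed, the stretch of bases by which a miRNA recognizes its target mRNAs. Their members were taken by name: every hairpin listed as rno-mir-34a, rno-mir-34b or rno-mir-34c or with a name that begins with rno-mir-449. This gave 4 of 392 hairpins (mir-34a, mir-34b, mir-34c and mir-449a) and 8 of 712 hairpin arms, and no antisense hairpin of a member was listed. A further relative, mir-449c, is listed under its mouse name and falls outside the rule, and its reads are given only where it bears on mir-449a.

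Adult male rats of the inbred strains BN-Lx (polydactyly-luxate brown Norway) and SHR (spontaneously hypertensive) were used, with no treatment described. From each of 6 tissues, all labelled as whole (brain, kidney, testis, heart, spleen and liver), 1 small RNA library per strain was sequenced. These 12 libraries are called the six-tissue set. The 6 tissues of a strain came from 1 rat, so a difference between strains and one between these 2 animals cannot be told apart. A further 2 livers of each strain brought the number of livers to 3 per strain and the number of libraries to 16.

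MiRNAs are cut from hairpin precursors, and either arm of the hairpin, 5p or 3p, can be kept in the silencing complex, where the seed (bases 2 to 8) directs it to mRNAs. mir-34a is known as a gene that p53 activates and is expressed in many tissues. mir-34b and mir-34c come from a shared transcript, mir-449a comes from another locus, and these loci are known for their activity in testis, in male germ cells, and in epithelia that carry motile cilia.

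The mature sequences of both arms are shown because the seed in capitals sorts the members into groups that do not follow the hairpins. They are the RefSeq sequences (GRCr8), 5′ to 3′, with bases 2 to 8 in capitals.
mir-34a-5p: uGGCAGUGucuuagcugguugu
mir-34b-5p: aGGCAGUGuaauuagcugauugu
mir-34c-5p: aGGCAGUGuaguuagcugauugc
mir-449a-5p: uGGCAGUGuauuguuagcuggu
mir-449c-5p: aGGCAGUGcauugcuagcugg
mir-34a-3p: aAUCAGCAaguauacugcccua
mir-34b-3p: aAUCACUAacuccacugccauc
mir-34c-3p: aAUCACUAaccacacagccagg
mir-449a-3p: cAGCUAACaugcaacugcucuc
All the 5p arms share the seed GGCAGUG. The 3p arms of mir-34b and mir-34c share a different seed, AUCACUA, and those of mir-34a and mir-449a each have their own. Compared base by base from the first, mir-34b-5p and mir-34c-5p were identical at 21 of 23 bases, and mir-34a-5p was identical to mir-449a-5p at 15 of 22 bases and to mir-34c-5p at 11 of 22. Of the 8 member arms, 7 had the RefSeq mature sequence as their commonest read, and the commonest read of mir-34c-3p was 1 base shorter at its 3′ end.

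In RefSeq (GRCr8) mir-34a lies at chr5:165815952-165816053 on the plus strand. mir-34b (chr8:60306609-60306692, minus strand) and mir-34c (chr8:60306091-60306167, minus strand) are separated by 441 bases and both overlap the annotated gene Hoatz. mir-449a lies at chr2:46403910-46404000 on the plus strand, 1436 bases from mir-449c, inside an uncharacterized annotated locus. The protein-coding genes nearest to mir-449a include Mcidas and Ccno, both known for their part in the making of multiciliated cells.

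The level of an arm is its reads over the library's outlier-corrected mean, the average read number of arms from known rat hairpins once the 3 highest are set aside. Libraries of brain, liver, spleen, heart and kidney in the six-tissue set held 403453 to 1064894 reads, the testis libraries 26880 (BN-Lx) and 29131 (SHR), and the further livers 1167607 to 3229461. The testis libraries and the first SHR liver had also been amplified with more PCR cycles than the rest. Each tissue carried its own markers (levels summed over a list): the brain list (mir-124, mir-9) was at 24.6 to 53.7 in brain and at most 3.51 elsewhere, mir-122 at 403 to 713 in liver and at most 2.88 elsewhere, the spleen and blood cell list at 158 to 168 in spleen and at most 19.7 elsewhere, and the heart list at 24.6 to 33.9 in heart and at most 0.879 elsewhere. The kidney and epithelium list was at 74.3 to 81.7 in kidney but reached 173 in liver, where mir-192-5p carried it. The pancreas list stayed at or below 0.534 and the erythroid list was highest in BN-Lx spleen, at 77.2. A list of 15 testis hairpins, 12 of which are in the files, was at 98.4 and 134 in testis and at most 0.581 elsewhere. Outside testis the 2 highest values of that list were in the third BN-Lx liver (487 reads on 10 of the 12 hairpins) and in BN-Lx kidney (271 reads on all 12, level 0.385), against 24 reads in SHR kidney (4 hairpins, level 0.0286).

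In both strains mir-34b and mir-34c were highest in testis. The BN-Lx rat had 531 testis reads of mir-34b-3p and the SHR rat 803, and the other tissues had 105 and 154 in brain, 63 and 9 in kidney, 18 and 33 in spleen, 13 and 20 in heart and 8 and 12 in liver (BN-Lx first, here and in later pairs), although those libraries were many times deeper. It made up 1.98% (exact 95% interval 1.81 to 2.15) of the BN-Lx testis library and 2.76% (2.57 to 2.95) of the SHR one, which put it at rank 11 of 324 and rank 7 of 342 among the arms read there, against rank 255 of 573 and 207 of 533 in brain. Per outlier-corrected mean its level was 19.6 ± 4.17 in testis (SD, n = 2) and 0.103 ± 0.0435 in brain, the next tissue, and the groups were far apart. In edgeR's quasi-likelihood test over the 12 libraries, with the strains as replicates, mir-34b-3p was higher in testis than the mean of the other 5 tissues by 7.90 on the log2 scale (SE 0.495, Benjamini-Hochberg adjusted p = 1.46e-07). In whole tissue, fewer cells of a type and less RNA per cell cannot be told apart.

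mir-34c-5p, the other main product of the shared transcript, had 374 and 735 reads in testis. In the other tissues it had 1009.5 and 1504 reads in brain, 1151 and 124 in kidney, 142 and 227 in spleen, 34 and 66 in heart and 34 and 48 in liver. Its level was 16.2 ± 6.30 in testis (SD, n = 2), 1.004 ± 0.432 in brain and 0.891 ± 1.05 in kidney, so that the testis exceeded the next tissue by 7.17 times in BN-Lx and by 15.8 times in SHR, and the 2 testis libraries lay above all others. The difference in testis was 4.84 on the log2 scale (SE 0.530, adjusted p = 1.40e-05, edgeR). Its passenger arm, mir-34c-3p, had 43 and 82 reads in testis, 42 and 25 in brain, 14 and 1 in kidney, 7 and 2 in spleen, 3 and 2 in heart and 0 in both livers of the six-tissue set. The further livers held 4 and 2 reads of mir-34c-3p (BN-Lx) and 16 and 21 (SHR), at levels of 0.00917 or less, and its difference in testis, 8.05 on the log2 scale in the six-tissue set, was 6.73 when all 16 libraries were fitted.

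mir-449a was close to the limit of these libraries outside testis. mir-449a-5p had 13 and 52 reads in testis, 17 and 3 in kidney, 5 and 11 in spleen, 1 and 1 in brain, 0 and 1 in heart and 0 and 1 in liver. The level in testis, 0.934 ± 0.744 (SD, n = 2), exceeded that of the next tissue by 16.9 times in BN-Lx and by 74.1 times in SHR (log2 difference from the mean of the other tissues 7.26, SE 0.702, adjusted p = 4.83e-06, edgeR). mir-449a-3p had 24 and 19 reads in testis and a single read in SHR heart, and was without a read in the other 9 libraries or the further livers. Against 3 reads over both libraries of a tissue, the floor that a count of 0 allows, it was at least 551 times higher in testis than in brain, 328 times than in kidney, 303 times than in spleen and 176 times than in liver. mir-449a-3p passed the filter on low counts through the testis libraries alone, so that its call there follows in part from the filter. Of mir-449c, which shares the locus, the testis libraries held 1 and 2 reads, all on the 3p arm.

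All 8 member arms passed the filter, 7 of them also without the testis libraries. Of the 8, 5 were called higher in testis than in each of the other 5 tissues (edgeR, adjusted p under 0.05 in all 5 contrasts): mir-34b-3p, mir-34c-5p, mir-34c-3p, mir-449a-5p and mir-449a-3p. Over all arms the same call was made for 5.91% of 457. Single contrasts of testis were called, in either direction, for 43.1% of all arms against brain, 28.2% against kidney, 28% against spleen, 28.9% against liver and 29.3% against heart. Among these 5 arms the smallest difference was that of mir-34c-5p between testis and kidney, 3.08 on the log2 scale (SE 0.920, adjusted p = 0.0231). Without 1 library, 3 to 5 arms were called: mir-34c-5p was lost without either testis library, BN-Lx spleen or BN-Lx brain, and mir-449a-5p without SHR testis or BN-Lx spleen, while mir-34b-3p and mir-34c-3p were called in all 12 of these fits. mir-449a-3p was lost without BN-Lx testis.

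**Figure D1:**
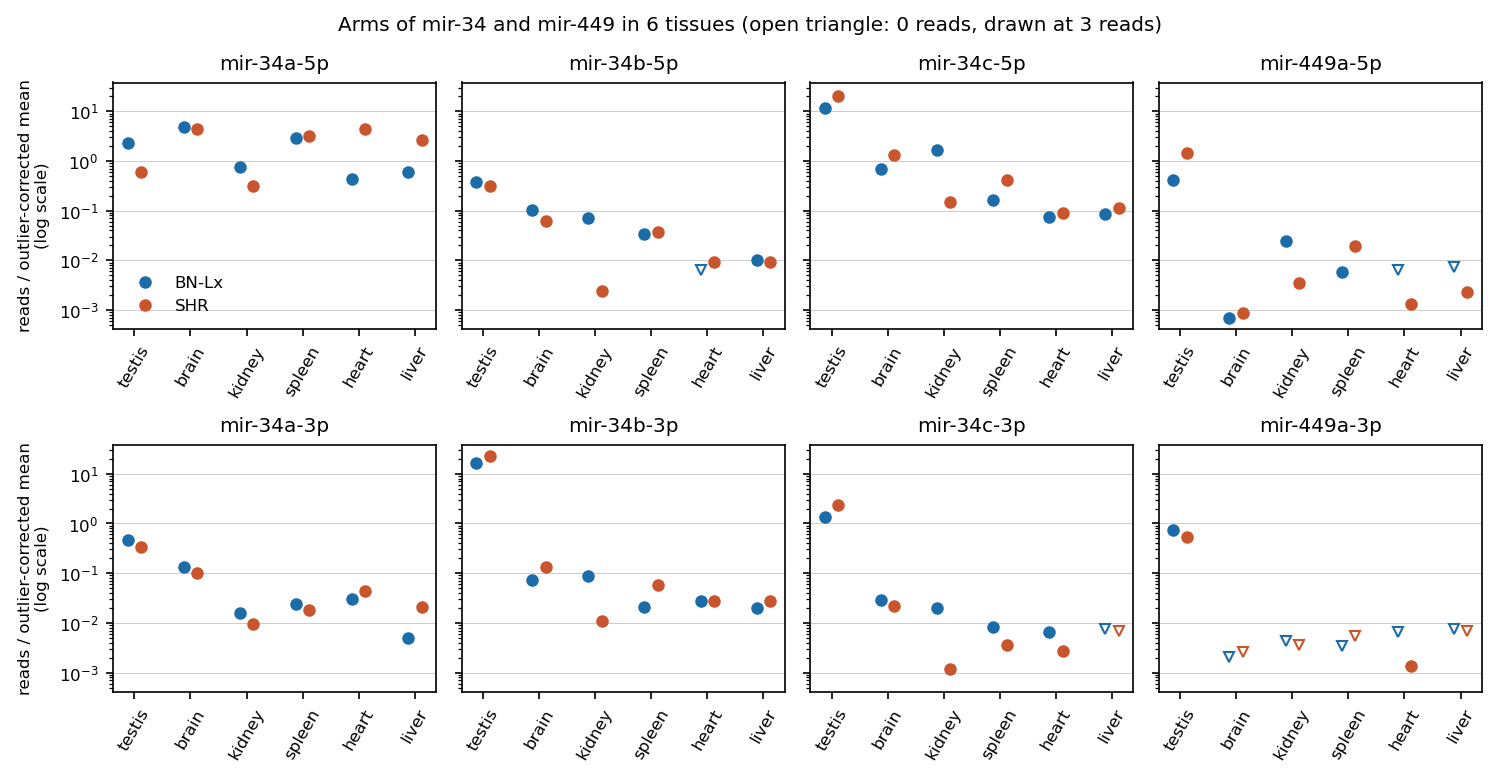
Level of each arm (reads per outlier-corrected mean, log scale) in 6 tissues of BN-Lx (blue) and SHR (orange), 1 library per point. Open triangles stand for 0 reads and are drawn at 3 reads. mir-34b-3p and mir-34c-5p lie at 11.7 to 22.6 in testis and at 1.63 or less elsewhere, whereas mir-34a-5p shows no such step.

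The remaining arms of mir-34 were less tied to testis. mir-34b-5p, the minor product of its hairpin there, had 12 and 11 reads in testis against 149.5 and 72 in brain, 50 and 2 in kidney, 30 and 21 in spleen, 0 and 7 in heart and 4 and 4 in liver. It was higher in testis than the mean of the other tissues (log2 difference 2.98, SE 0.841, adjusted p = 0.0206, edgeR), but the difference did not pass against brain (1.63, adjusted p = 0.249), spleen (2.12, adjusted p = 0.184) or kidney (2.46, adjusted p = 0.147). The call against the mean was lost without BN-Lx testis (adjusted p = 0.147), SHR testis (0.234) or BN-Lx spleen (0.0635).

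mir-34a-5p, by contrast, was read in every tissue, and neither testis nor brain was called above the others. It had 6921 and 5135 reads in brain, 2553 and 1760 in spleen, 202 and 3218 in heart, 237 and 1133 in the livers of the six-tissue set, 72 and 21 in testis and 537 and 259 in kidney. In order of level the tissues were brain (4.63 ± 0.222), spleen (3.05 ± 0.148), heart (2.40 ± 2.78), liver (1.61 ± 1.44), testis (1.42 ± 1.18) and kidney (0.536 ± 0.321), each as mean ± SD with n = 2. On this scale brain and spleen agreed closely between strains and did not overlap, while heart, liver and testis each spanned a range that overlapped with their neighbours. The edgeR fit, which scales libraries otherwise, did not separate brain from spleen (brain minus spleen -0.098 on the log2 scale, SE 0.930, adjusted p = 0.942). In edgeR, the F test over all tissues gave an adjusted p of 0.110 for mir-34a-5p, and the other 7 member arms were called, as were 83.4% of all arms. It passed without BN-Lx heart, SHR heart or BN-Lx kidney, while mir-34b-5p (adjusted p = 0.0391) was lost without any 1 of the 8 libraries of brain, liver, spleen and testis. Between pairs of tissues, mir-34a-5p passed for brain over kidney (log2 2.50, SE 0.989, adjusted p = 0.0448, with 60.2% of all arms called), and again in 5 of the 12 fits that left out 1 library (either liver, either heart or BN-Lx kidney).

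In testis mir-34a-5p differed from the mean of the other 5 tissues by -1.41 on the log2 scale (SE 0.845, adjusted p = 0.266, edgeR). The median over all arms in this contrast was itself -0.869 and moved to 0.114 when the libraries were scaled by the outlier-corrected mean, where mir-34a-5p was at -0.35. In testis mir-34a-5p was at 2.26 (BN-Lx) and 0.590 (SHR). Markers of other tissues did not all stand in this order there. The brain list was at 3.51 and 0.955 (all 6 hairpins read in both), mir-122 at 2.88 and 2.30 and the kidney and epithelium list at 5.17 and 3.34. Nearly equal were the spleen and blood cell list (12.98 and 12.47), the erythroid list (2.04 and 2.02) and the heart list (0.125 and 0.126). The pancreas list lay the other way, at 0.0627 and 0.505, on 2 and 18 reads. The part of RNA of other tissues in these mir-34a-5p levels was not tested. No member arm was called higher in brain than in each of the other 5 tissues, a call made for 17.9% of all arms, and mir-34a-5p differed from the mean of the others there by 1.17 (SE 0.664, adjusted p = 0.152). That difference passed without BN-Lx kidney (1.41, adjusted p = 0.0384) or SHR heart (1.62, adjusted p = 0.0146).

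Its other arm, mir-34a-3p, was the exception within the mir-34a hairpin. It had 15 and 12 reads in testis, 190 and 117 in brain, 14 and 32 in heart, 21 and 10 in spleen, 2 and 9 in liver and 11 and 8 in kidney, which gave levels of 0.404 ± 0.0942 in testis and 0.117 ± 0.0209 in brain (SD, n = 2). It was higher in testis than the mean of the other tissues (log2 difference 2.88, SE 0.528, adjusted p = 0.00124) and than each of liver, spleen, heart and kidney (adjusted p = 0.0419 or less), but the difference from brain did not pass (1.33, SE 0.705, adjusted p = 0.147). The call against heart, the weakest (2.19), was lost in the 8 fits without a library of brain, spleen, heart or testis (adjusted p = 0.0557 to 0.225).

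Different members supplied the GGCAGUG seed in different tissues. Reads with this seed were 467 and 814 in testis, or 1.74% and 2.79% of the library, against 0.747% and 0.772% in brain and 0.516% or less in the other 8 libraries of the six-tissue set. In testis mir-34c-5p supplied 79.9% (BN-Lx) and 90.2% (SHR) of them, mir-34a-5p 15.2% and 2.58%, mir-449a-5p 2.78% and 5.90%, and mir-34b-5p 2.14% and 1.35%. In brain, liver, spleen and heart mir-34a-5p supplied 76.5% to 97.8%. The kidneys lay between: mir-34a-5p supplied 30.4% in BN-Lx kidney and 66.3% in SHR kidney, with mir-34c-5p at 66.1% and 32.4%.

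**Figure D2:**
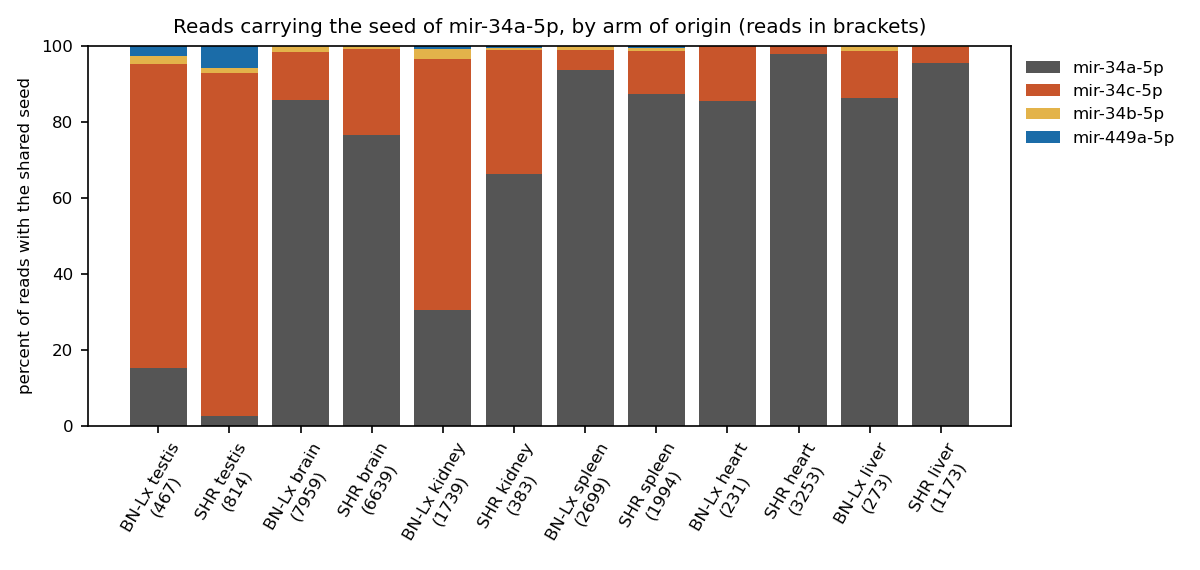
Share (percent) of the reads with the seed of mir-34a-5p that came from mir-34a-5p, mir-34c-5p, mir-34b-5p and mir-449a-5p in each library of the six-tissue set, with the number of such reads in brackets. mir-34c-5p makes up most of them in both testis libraries and in BN-Lx kidney, and mir-34a-5p in the other 9.

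The second seed of the cluster, AUCACUA, was read mostly in testis. Reads with it, from mir-34b-3p and mir-34c-3p together, were 450 and 709 in testis (1.67% and 2.43% of the library), 125 and 141 in brain (0.0117% and 0.0164%) and 8 to 61 in the other 8 libraries of the six-tissue set. In testis mir-34b-3p supplied 90.7% and 89.1% of these reads and mir-34c-3p the rest.

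Ratios of arms within a library do not depend on how libraries are scaled. There were 5.19 reads of mir-34c-5p for each read of mir-34a-5p in the BN-Lx testis library, and 35 for each in the SHR one. In the rest of the six-tissue set there were between 0.0205 (SHR heart) and 0.479 (SHR kidney), apart from 2.14 in BN-Lx kidney, and in the further livers between 0.0165 and 0.0961. The log2 ratio was higher in testis than in the other 10 libraries by 6.44. For mir-34b-3p the ratio was 7.38 and 38.2 in testis and 0.117 or less elsewhere, a log2 difference of 9.48, and for mir-449a-5p it was 0.181 and 2.48 in testis and 0.0317 or less elsewhere, a log2 difference of 8.37. In all 3 ratios both testis libraries lay above the other 10. A two-sided exact permutation test (n = 2 and 10) gave p = 0.0303, the smallest p that the 66 divisions allow. After adjustment over the 3 ratios it was 0.0303. The test takes the libraries as independent, but those of a strain came from the same rat and the other 10 span several tissues. The n therefore counts libraries, not animals. Within each strain the testis difference was 4.60 (BN-Lx) and 8.28 (SHR) for mir-34c-5p and 7.86 and 11.1 for mir-34b-3p.

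**Figure D3:**
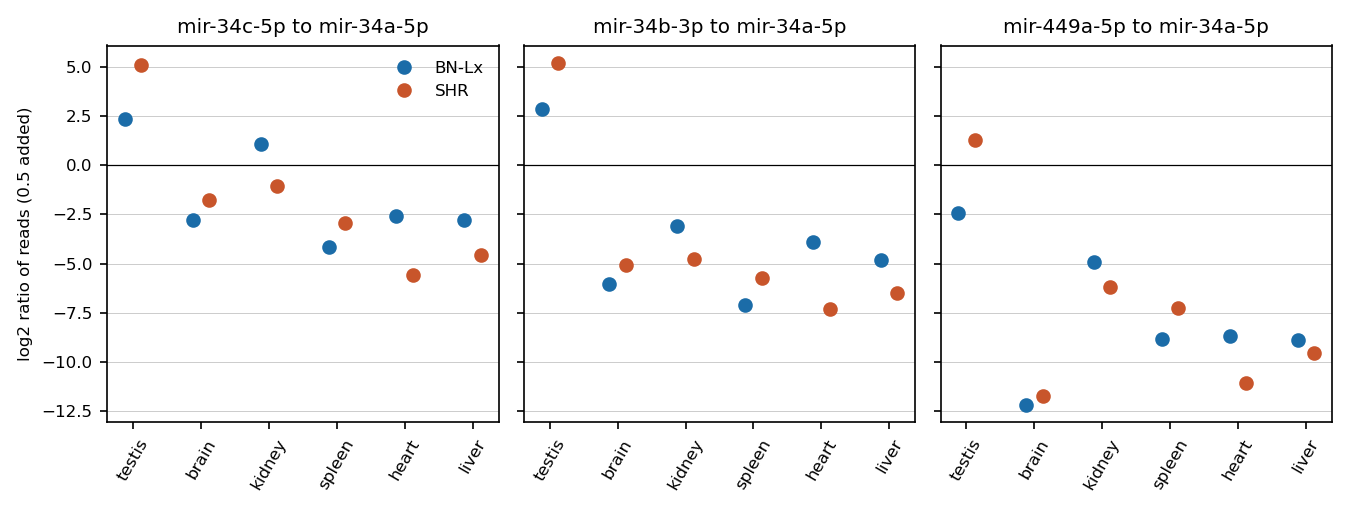
Log2 ratio of the reads of mir-34c-5p, mir-34b-3p and mir-449a-5p to those of mir-34a-5p (0.5 read added to each) by tissue, with 1 library per point (BN-Lx blue, SHR orange) and a line at equal reads. Testis lies above every other tissue in all 3 panels, and BN-Lx kidney is the next for mir-34c-5p.

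The products of the mir-34b and mir-34c transcript also stood in a different ratio in testis. For each read of mir-34c-5p there were 1.42 (BN-Lx) and 1.09 (SHR) reads of mir-34b-3p. In the other libraries of the six-tissue set the ratio ran from 0.0547 and 0.0726 in kidney through 0.104 and 0.102 in brain, 0.127 and 0.145 in spleen and 0.235 and 0.250 in liver to 0.382 and 0.303 in heart (BN-Lx first). The strains gave close ratios in each tissue, kidney included, although mir-34b-3p and mir-34c-5p were each many times higher in BN-Lx kidney, and both testis libraries lay above the rest. In the further livers, on 1 to 32 reads of mir-34b-3p, the BN-Lx ratios were 0.0455 and 0.5, and the SHR ones 1.35 and 0.364.

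The arm of the mir-34b hairpin that was read differed as well. In testis the 5p arm held 2.21% (exact 95% interval 1.15 to 3.83) of the mir-34b reads of the BN-Lx rat and 1.35% (0.676 to 2.41) of those of the SHR rat. In brain it held 58.7% (52.7 to 65.2) and 31.9% (25.8 to 38.4), in spleen 62.5% and 38.9%, and in BN-Lx kidney 44.2% (34.9 to 53.9). The remaining 5 libraries of the six-tissue set held 11 to 27 reads of mir-34b each and gave 0% to 33.3%. For mir-34a the 5p arm had 82.8% (73.2 to 90.0) and 63.6% (45.1 to 79.6) in testis and 93.5% to 99.4% elsewhere. For mir-34c it had 89.7% and 90.0% in testis and 91.9% to 100% in the other 10 libraries of the six-tissue set, but 84.6% and 85.7% (BN-Lx) and 51.5% and 80.7% (SHR) in the further livers, which lay below testis on 14 to 109 reads. mir-449a had 35.1% (20.2 to 52.5) and 73.2% (61.4 to 83.1) on the 5p arm in testis, and in the 7 libraries of brain, kidney, spleen and liver of the six-tissue set that held any of its reads (1 to 17), all lay on that arm.

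With 0.5 read added to each arm, the 5p to 3p ratio was lower in both testis libraries than in the other 10 of the six-tissue set for mir-34a, mir-34b and mir-34c, although without the added read BN-Lx heart, at 0 of 13 reads, was below testis for mir-34b. For mir-34c this order did not hold in the further livers, where the ratio without the added read was 1.06 to 6 against 8.70 and 8.96 in testis. The fitted log2 change of the 5p to 3p ratio in testis was -4.29 for mir-34a, -4.92 for mir-34b, -3.21 for mir-34c and -3.04 for mir-449a. In edgeR's test of unequal change of the arms of a hairpin, mir-34a passed (adjusted p = 0.0157), and mir-34b (adjusted p = 0.0528), mir-34c (0.0814) and mir-449a (0.159) did not, with 1.83% of 164 hairpins called. The mir-34a call rests on 15 and 12 reads of the 3p arm in testis and was lost without either testis library (adjusted p = 0.0781 and 0.330) or either brain library (0.0531 and 0.0624). Without either kidney library, mir-34b (adjusted p = 0.00167 and 0.00036) and mir-34c (0.00483 and 0.00254) passed as well. By a two-sided exact permutation test of the log2 ratio, p was 0.0303 for each of these 3 hairpins (n = 2 and 10), the smallest it allows, and 0.192 when adjusted over 165 hairpins. The median change of the log2 ratio over the 164 hairpins with at least 50 reads of each arm was -0.14, and in 9.76% of them both testis libraries lay below all others.

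**Figure D4:**
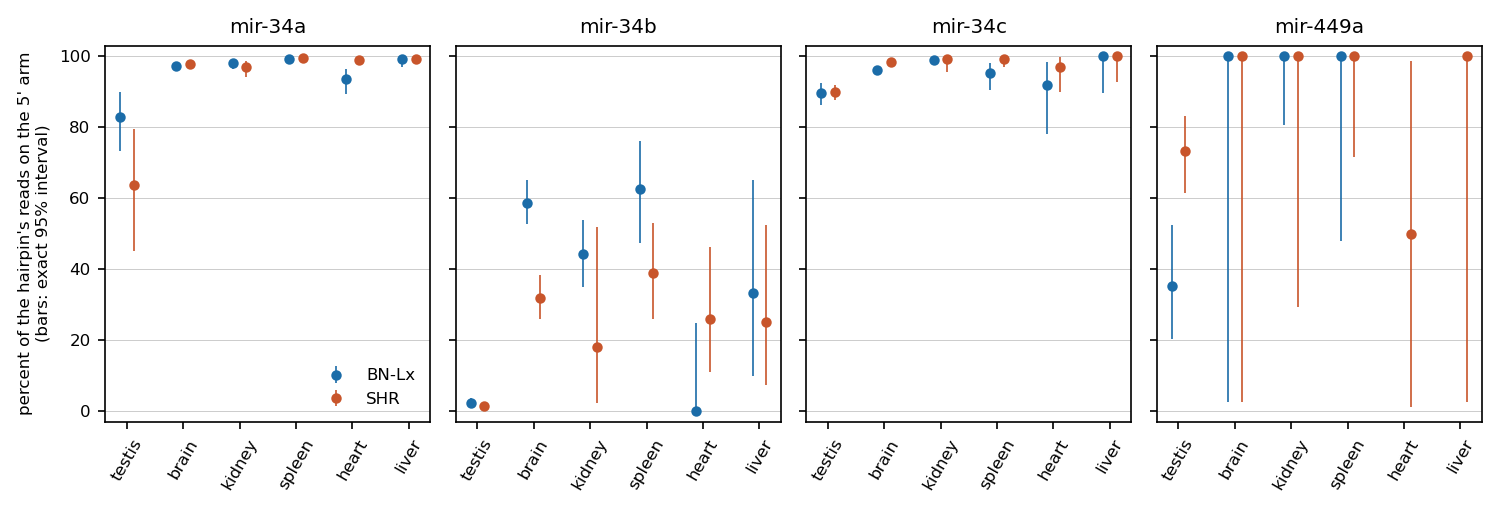
Share of the reads of each hairpin that lay on the 5p arm (percent, points, with exact 95% intervals for counting error) by tissue for BN-Lx (blue) and SHR (orange), 1 library per point; mir-449a had no read in BN-Lx heart and liver. mir-34b falls to 2.21% and 1.35% in testis, and mir-34a to 82.8% and 63.6%.

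The first base of a read sets its seed, and among the 8 arms those of mir-34b most often had an alternative first base, followed by mir-34a-3p, of which 7.71% began 1 base early. Of the mir-34b-3p reads in the six-tissue set, 78.2% began at base 51 of the hairpin and 20.6% at base 52, and of the mir-34b-5p reads 86.5% began at base 14 and 13.5% at base 13. The shifted reads are shown because the shift changes bases 2 to 8 (in capitals).
mir-34b-3p from base 52: aUCACUAAcuccacugccauca
mir-34b-5p from base 13: uAGGCAGUguaauuagcugauugu
The shifted mir-34b-3p was 22.2% and 20.1% of that arm in testis, 16.2% and 23.4% in brain, 20.6% in BN-Lx kidney and 21.2% in SHR spleen. By contrast 99.8% of mir-34c-5p reads and 98.7% of mir-34a-5p reads began at the usual base. The share of reads at the usual base differed between testis and the other libraries by 1.52 percentage points for mir-34b-3p, 0.695 for mir-34a-5p and -0.131 for mir-34c-5p. None of these 3 differences, the arms with enough reads, passed (two-sided exact permutation tests, adjusted p = 0.762, 0.318 and 0.318, n = 2 testis libraries against 5, 10 and 10 others). At the other end of mir-34a-5p, the usual last base was used by 80.6% and 57.1% of the reads in testis and by 84.0% to 92.0% in the other 10 libraries of the six-tissue set (p = 0.0303, adjusted over 3 arms 0.0909, exact permutation test, n = 2 and 10). In the further livers it was used by 76.4% to 87.8%, and 1 of them, the second BN-Lx liver, lay below BN-Lx testis.

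Outside testis the levels of mir-34c-5p and mir-449a-5p were highest in BN-Lx kidney. There mir-34c-5p had 1151 reads, a level of 1.63, against 124 reads and a level of 0.148 in SHR kidney. This 11.1-fold difference is between 1 library of each strain, so there is no test within kidney. mir-34b-3p was 8.34 times and mir-34b-5p 29.8 times higher in BN-Lx kidney (on 9 and 2 reads in SHR), and among 453 arms 14 had a larger log2 difference than mir-34c-5p. mir-34a-5p was 2.47 times higher. In the other tissues the strain ratio of mir-34c-5p lay the other way, at 1.22 to 2.48 times higher in SHR in each of the 5.

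Since the testis hairpins were also read in BN-Lx kidney, each level there is set against that in BN-Lx testis. The testis list stood at 0.391% of its BN-Lx testis level, mir-34b-3p at 0.537%, mir-34c-3p at 1.47%, mir-449a-5p at 5.92%, mir-34c-5p at 13.9% and mir-34b-5p at 18.9%. In SHR kidney the same values were 0.0213% for the list, 0.0476% for mir-34b-3p and 0.716% for mir-34c-5p. In BN-Lx kidney mir-34b-3p was near the summed share of the testis list, and mir-34c-5p and mir-34b-5p were above it. Arms of the list differed among themselves in raw reads: mir-201-3p had 25 reads in BN-Lx kidney and 94 in BN-Lx testis, and mir-743a-3p had 5 and 274. These counts are not shares of the testis level, since the kidney library held 544130 reads and the testis library 26880. The 5p arm share of mir-34b was 44.2% in BN-Lx kidney and 2.21% in BN-Lx testis, and the counting intervals did not overlap. In SHR they did overlap, at 18.2% (2.28 to 51.8, on 11 reads) in kidney and 1.35% (0.676 to 2.41) in testis. Whether RNA of testis reached the kidney library was not tested. In brain the testis list was at 0.0302% (BN-Lx) and 0.0214% (SHR) of its testis level, while mir-34b-3p was at 0.436% and 0.595% and mir-34c-5p at 5.95% and 6.34%.

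**Figure D5:**
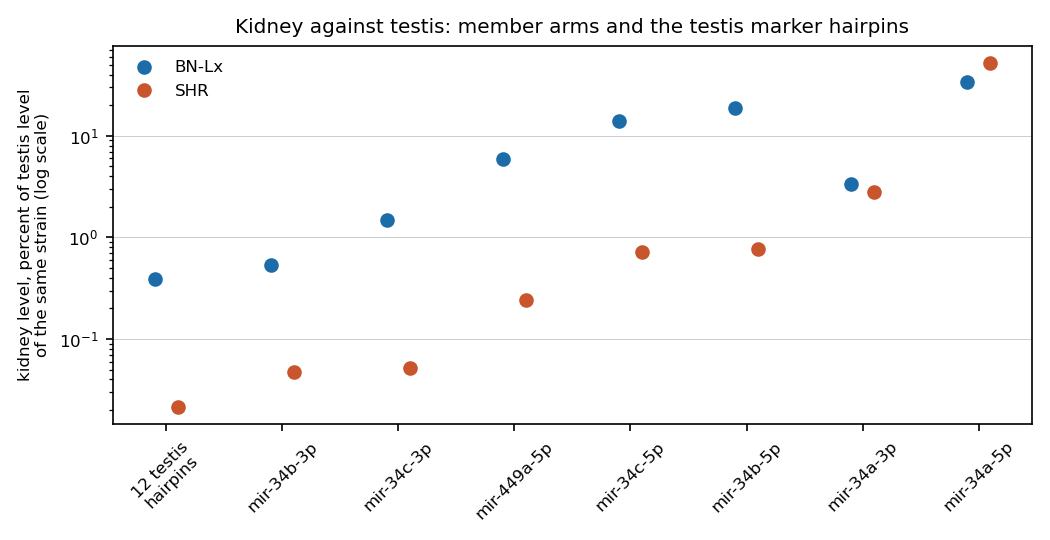
Level in kidney as a percent of the level in testis of the same strain (log scale) for the 12 testis marker hairpins summed and for each member arm, with 1 point per strain (BN-Lx blue, SHR orange); mir-449a-3p, with 0 reads in kidney, is not drawn. In BN-Lx, mir-34b-3p (0.537%) lies close to the testis hairpins (0.391%) and mir-34c-5p (13.9%) well above.

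Over both strains mir-34c-5p was higher in kidney than in liver (log2 difference 3.25, SE 0.935, adjusted p = 0.0320) and in heart (3.33, SE 0.933, adjusted p = 0.0267, edgeR), with 18.2% and 16.2% of all arms called in these contrasts. Against brain the difference was 0.49 (SE 0.872, adjusted p = 0.646). Without BN-Lx kidney the differences from liver and heart were 0.20 (adjusted p = 0.910) and 0.30 (0.844), and that from brain was -2.44 (adjusted p = 0.00278), while without SHR kidney it was 1.67 (adjusted p = 0.0107). The call against liver was also lost without either library of liver, spleen or testis, and that against heart without either library of heart, spleen or testis (adjusted p = 0.0524 to 0.179). Brain was higher than heart (2.84, SE 0.892, adjusted p = 0.0174) and liver (2.76, SE 0.890, adjusted p = 0.0182), calls made for 55.6% and 61.1% of all arms, but not than spleen (1.23, SE 0.834, adjusted p = 0.230, with 56.5% of all arms called). These calls were lost without SHR brain or either library of heart or of liver, respectively (adjusted p = 0.0820 to 0.108).

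Between strains no member arm was called over the 6 tissues, and none of all 457 arms was (0%, edgeR, smallest adjusted p 0.998). An unadjusted p under 0.05 was reached by 8 arms (1.75%), and DESeq2 also called 0. For mir-34a-5p SHR heart was 10.05 times above BN-Lx heart (4.36 against 0.434), with 2 of 453 arms showing a larger difference there, and SHR liver 4.45 times above BN-Lx liver. In testis it lay the other way, with BN-Lx 3.83 times higher, and in brain and spleen the strains were within 1.07 times of each other. The strain difference of mir-34a-5p in testis departed most from that in liver, by -3.83 on the log2 scale. In that fit only the livers had more than 1 library per strain, so its spread was that of the livers alone. It therefore cannot test whether the strain difference varies between tissues.

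In liver, with 3 rats per strain, the BN-Lx livers had mir-34a-5p at levels of 0.592, 0.240 and 0.177 and the SHR livers at 2.63, 0.459 and 0.775. The groups overlapped, although SHR was higher within each of the 3 replicate numbers. The difference was 1.81 on the log2 scale (SE 0.724, unadjusted p = 0.0390, adjusted p = 0.995, edgeR). mir-34a-3p did not overlap, at 0.00419 to 0.00500 in BN-Lx and 0.0162 to 0.0209 in SHR (log2 difference 2.02, SE 0.549, unadjusted p = 0.00715, adjusted p = 0.995), on 2 to 45 reads. With the replicate number as a block, the difference was 1.74 for mir-34a-5p (SE 0.379, unadjusted p = 0.00357) and 2.03 for mir-34a-3p (SE 0.545, unadjusted p = 0.00956), with an adjusted p of 0.458 for both in edgeR, so neither was called. Without 1 liver, and with no block, the differences were 1.06 to 2.49 and 1.90 to 2.11. mir-34c-5p was at 0.0143 to 0.0850 in BN-Lx and 0.00758 to 0.112 in SHR (log2 difference 0.24, SE 0.987, adjusted p = 0.995), and mir-34b-3p at 0.00105 to 0.0200 and 0.0103 to 0.0279 (0.94, SE 0.919, adjusted p = 0.995). Without 1 liver these were -0.59 to 1.30 and 0.33 to 2.02. In the third BN-Lx liver, which held 487 reads of the testis hairpins, mir-34b-3p and mir-34c-5p had 6 and 12 reads. Of the 487, mir-463-5p had 152 and mir-742-3p 139, while both arms of mir-202 and of mir-201 had 0. No arm of 271 was called (0%, with 6 or 2.21% at an unadjusted p under 0.05), and DESeq2 called 0.

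Other arms with a like pattern over the 12 libraries were found by Pearson's r of the log2 level, as a description, since all points share libraries and depth. The 3 closest to mir-34b-3p among 446 arms with at least 50 reads were mir-880-3p (r = 0.982), mir-871-3p (0.977) and mir-742-3p (0.969), and those closest to mir-34c-5p were mir-742-3p (0.937), mir-202-5p (0.935) and mir-880-3p (0.927). All of these arms are from hairpins of the testis list. For mir-449a-5p they were an arm of mir-465b-1 (0.946), mir-93-5p (0.924) and mir-881-3p (0.921). mir-34a-5p had no close match, with mir-29a-3p (0.696), mir-338-5p (0.670) and mir-195-3p (0.664) at the top.

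Among the members themselves mir-34b-3p and mir-34c-5p had r = 0.933 over the 12 libraries and 0.858 over the 10 without testis. Between mir-34a-5p and mir-34c-5p r was 0.0421 and 0.319. Of hairpins known as linked to p53, as mir-34a is (mir-192, both mir-194 hairpins, mir-215, mir-107, mir-143, mir-145 and mir-16), all 8 were in the files, and of their 11 arms tested 0 were higher and 1 was lower in testis than the mean of the other tissues (edgeR), against 11.2% and 13.6% of all arms. Of the testis list, 16 of 17 arms tested were higher in testis than in each other tissue, against 5.91% of all arms. That list holds miRNAs that the study also found in these testis libraries, so this count is not an independent result.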

How the data were processed

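The 16 small RNA libraries cover 6 tissues of adult male rats of both strains and 4 further livers. The deposited values are estimated counts, not normalized: SOLiD reads, aligned with SHRiMP, that match a miRNA hairpin without mismatch, listed by their first and last base, where a read that fits several hairpins was shared evenly. For mir-34b and mir-34c such fractions came to 0.5 and 2.5 reads. Here counts were summed per arm (reads over 20 nt from the main arm were given to the other), rounded, and fitted with edgeR 4.0.16 (quasi-likelihood, TMM scaling, filterByExpr, tissue and strain terms, adjusted p under 0.05) over 457 arms, in R 4.3.3. Standard errors are the log2 difference over the root of the F value. Livers were compared with strain as the only term. Exact tests used Python 3.11.15 with scipy 1.17.1, and add 0.5 read to ratios. Alternatives were DESeq2 1.42.0, other scalings, filters and terms, thinning, and each library left out. The fits were tested on simulated counts.

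Each tissue has 1 library per strain, and the fits between tissues hold a strain term. Their p-values therefore measure how unevenly the strains differ from tissue to tissue, not a strain shift shared by all tissues. The exact permutation tests take libraries as independent, although the tissues of a strain came from the same rat. Their n counts libraries, not animals. Intervals (exact Clopper-Pearson, 95%) and the floor of 3 reads cover counting error only, and the testis libraries are, at their depth, the least precise. Counts of arms that differ in sequence also carry how well each is ligated, which was not measured. Livers of the strains share replicate numbers, and after removal of the group means livers of a number had correlations of 0.668, 0.57 and 0.3 over arms. Livers of different numbers were not compared, and the first livers were also the shallowest. These correlations therefore cannot show whether the numbers pair the livers. The first livers carry no number in their labels and were taken as replicate 1. Named are all member arms, the 3 arms closest to each of 4 of them, and lists of markers and of p53-linked hairpins. The members and lists were chosen with earlier results of these data known. The testis list holds miRNAs that the study also found in these testis libraries, so it is not independent of them.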

Additional observations from a re-analysis of the deposited data

How the results depend on the processing

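The 5 arms called higher in testis than in each other tissue were the same 5 under RLE scaling, scaling by the outlier-corrected mean or total reads, no filter, no strain term and thinning to 26879 reads. DESeq2 called 4, not mir-449a-3p, and the fit of all 16 libraries 4, not mir-34c-5p. Without 1 library the number was 3 to 5. The median of all arms in testis ran from -0.936 to 0.266 over the fits that left out no library, with 51 arms higher and 62 lower in the reported fit and 99 and 22 when scaled by the outlier-corrected mean, and mir-34a-5p in testis was at -1.50 to -0.30 in those fits and at -2.93 (without BN-Lx testis) to -0.49 (without SHR testis) without 1 library. Between tissues 6 to 8 members differed without 1 library. For the arm balance, 2 hairpins were called without the strain term, 0 by the exact test and 0 to 3 without 1 library. The ratios to mir-34a-5p in testis were 5.08 to 7.81 (mir-34c-5p), 8.30 to 10.7 (mir-34b-3p) and 6.51 to 10.2 (mir-449a-5p) without 1 library, and with 1 testis library left p cannot go below 0.182 (exact permutation). Thinned, that of mir-449a-5p was 5.89. The difference of mir-34c-5p between kidney and brain, not called, changed sign with RLE scaling (-0.13), the outlier-corrected mean (-0.047), total reads (-0.090), DESeq2 (-0.13) and thinning (-0.50), and was -2.44 without BN-Lx kidney and 1.67 without SHR kidney. The strain difference of mir-34c-5p in liver ran from -0.59 without SHR liver 1 to 1.30, with -0.076 and -0.22 without BN-Lx liver 2 and BN-Lx liver 3. mir-34a-5p in brain was called with total reads (1.86, adjusted p = 0.0297), no filter (1.20, 0.0284) and thinning (1.69, 9.77e-05). With the replicate block 0 member arms were called in liver, as without it. The calls of mir-34a-5p for brain over kidney and of mir-34c-5p for kidney over heart were lost with all 16 libraries (adjusted p = 0.0764 and 0.0735), as was that of mir-34a-3p for testis over heart (0.0775), which was also lost with no filter (0.0639) and thinned (0.107). The causes of these changes were not tested.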
